A study of Caenorhabditis elegans with 2 samples.

Results

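The regions described here are places in the genome of the nematode Caenorhabditis elegans where chromatin precipitated with tagged TRA-4 gave a region whose summit lay at the downstream end of a protein-coding gene and away from gene starts. The zinc finger protein TRA-4 resembles human PLZF and promotes female development in the worm, working with NASP-1, which handles histones, and HDA-1, which deacetylates them. A region was taken when its summit, the base of highest signal, lay within 300 bp of the annotated 3' end of a protein-coding gene. It also had to lie more than 500 bp from the annotated start, the outermost one, of every protein-coding, tRNA, snoRNA, snRNA, miRNA or ncRNA gene. The relaxed list called on both replicates pooled was labelled peaks and background by the authors, so its regions need not be binding sites. Of its 9660 regions, 721 (7.46%, exact 95% interval 6.95 to 8.01) met both conditions. They are called 3' end regions below. They are compared with the 5451 other regions over 500 bp from starts and, where that helps, with the 3488 regions near starts.

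DNA bound by the protein was read by ChIP-seq, the sequencing of immunoprecipitated chromatin, from early embryos collected by egg bleaching, with both sexes pooled. There was 1 group of 2 biological replicates, and all animals were of strain OP640, genotype unc-119(tm4063) III; wgIs640, in which a C-terminal GFP-FLAG tag is fused to TRA-4. An antibody against GFP precipitated the tagged protein, so the line is a single transgenic strain in a mutant background and the signal is that of the tagged protein in whole embryos. The design has no second condition, and regions of 1 list are not replicates, so the values below are counts, shares and densities with exact intervals and no p-values. The intervals cover counting error only. Sequencing depth is unknown, because the files are region lists with no read counts.

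The 3' end of a protein-coding gene is where the messenger RNA is cut and given its poly(A) tail, usually a short way after the hexamer AATAAA in the transcript. RNA polymerase runs on past that point before it lets go of the DNA. The C. elegans genome is compact, so the sequence beyond a 3' end is often the start of the next gene, the 3' end of a convergent neighbour, or the body of an overlapping gene. A region at a 3' end therefore has no obvious promoter to be assigned to when it is over 500 bp from the avoided starts. Starts of shorter transcripts within genes, and starts of other gene types, were not avoided.

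The sequences under 5 summits are shown because these regions are in the authors' final set and lie outside every protein-coding gene. The region beside T28B8.1 also meets both conditions and is not shown; its summit had 23.8% G+C within 50 bp and none of the first 8 motifs below. A stretch 279 bp beyond the 3' end of tra-4 is shown because tra-4 encodes the protein that was precipitated. Its region ranked 2564, had a q-value of 0.615 and is not in the final set. Each stretch is 30 bases of the ce11 (WBcel235) genome around the summit, written 5' to 3' on the plus strand. Capitals mark a match, on either strand, to a searched motif. These were AATAAA (the polyadenylation hexamer), CACGTG (the E box hexamer), TATAAA (the hexamer of TATA boxes), GTTCGANNC (a form of the B box inside tRNA genes) and TGGCNNAGT (a form of their A box). The repeats GAGAGA (a purine run), TTTTTTTT (a run of T) and GCGCGC (an alternating run) were searched too. Looser forms of the A box, TGGNNNAGT (with any base at 3 positions), and of the B box, written GTTCNANNC, were added after values were seen.
D2096.7, chrIV:8375589-8375618: tcttaaccACTAGACCAagcgtgcaacagc
pat-4, chrIII:89342-89371: tcactagccactaggctaCACGTGcaaatt
cav-1, chrIV:9773753-9773782: tgcggaaacaataagcttgttAATAAAttt
F54C8.7, chrIII:9451311-9451340: atttttgaacaaccatattaccacagaacg
K02B2.6, chrIV:5961445-5961474: gcacaCACGTGatgcgcatgGCGCGCGCtc
tra-4, chrX:2853381-2853410: cacacCACGTGaagcgccatgcaccgcgca
The capitals in D2096.7 are the looser A box form read on the minus strand. The capitals in pat-4, K02B2.6 and tra-4 are E boxes, with overlapping GCGCGC matches in K02B2.6 as well. The F54C8.7 stretch holds none of the motifs. A match is a run of letters and not evidence that a protein binds there.

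The 3' end regions were mostly weak, and few were in the authors' final set. That set is named for the irreproducible discovery rate (IDR), a score of how alike regions rank in replicates. Its 3' end regions were the same 11 that fell within pooled ranks 1 to 394. For them, membership cannot be told apart from a cut on pooled signal. The set held 11 of the 721 3' end regions (1.53%, 0.764 to 2.71), against 37 of the 5451 other regions away from starts (0.679%, 0.478 to 0.934) and 346 of the 3488 near starts (9.92%). Over the whole list the share was 4.08%, so the 3' end regions stood below the list as a whole and above the others away from starts, where the intervals overlap. A q-value under 0.05 was reached by 22 3' end regions (3.05%, 1.92 to 4.58), against 85 of the other regions away from starts (1.56%, 1.25 to 1.92) and 5.54% of all regions. The median rank by deposited signal was 4980 for 3' end regions (quartiles 2627 and 7211), 5292 for other regions away from starts and 3911.5 for those near starts, with rank 1 the strongest. Their deposited signal values ran from 44.0 to 222.9 with a median of 52.6, against a median of 51.8 for the other regions away from starts. Signal values are on the peak caller's own scale, which differs between lists, and are used here for ranks within a list. All 721 regions had the same width, so width does not tell them apart.

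Most of the 3' end regions overlapped regions of both replicates by at least 1 bp, and the share fell with rank. Of the 721, 557 (77.3%) overlapped a region of replicate 1 by at least 1 bp, 601 (83.4%) overlapped one of replicate 2, and 440 (61.0%, 57.4 to 64.6) overlapped regions of both. The share matched in both was 59.2% for other regions away from starts and 69.7% for regions near starts. Neither replicate matched 3 of the 721, against 54 of the 5451 other regions away from starts. All 11 in the IDR set were matched in both replicates, as were 38 of the 39 that ranked between the IDR set and rank 1000, and 34.0% of the 162 that ranked below 7500. For the other regions away from starts the shares in those last 2 rank bins were 98.4% and 33.0%. The rule applied to each replicate's own list found 1387 3' end regions among 19062 in replicate 1 (7.28%) and 1053 among 13957 in replicate 2 (7.54%). Replicate ranks and signals given for a region below are those of the strongest replicate region overlapping it by at least 1 bp. Neighbouring pooled regions can therefore share them, as at K02B2.6, where pooled ranks 392 and 2721 both carry 3212 and 259.

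The 3' end regions made up a larger share of the regions away from starts at the strong end of the list. They were 11 of the 48 away from starts in the IDR set (22.9%, 12.03 to 37.3), the same 11 as counted above. They were 13.3% of those from there to rank 1000, 13.3% of those from there to rank 2500 and 10.5% (9.02 to 12.1) of those below rank 7500. The first interval rests on 48 regions and overlaps the last.

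The density of summits was higher downstream of the 3' end than inside the gene. The median summit was 62 bp beyond the 3' end (quartiles 121 bp inside and 194 bp beyond), while the bases the rule can reach had a median of 5 bp beyond. Of the 721, 437 (60.6%, 56.9 to 64.2) lay beyond the end, where 50.9% of the reachable bases lie. The density was 118.1 summits per megabase (Mb) beyond the end (107.3 to 129.7) and 79.6 inside the gene (70.7 to 89.5), with intervals that do not overlap. In steps of 50 bp the lowest density was 50.04 per Mb (33.5 to 71.9, 29 regions), between 100 and 50 bp inside the gene. The highest was 157.3 per Mb (126.0 to 194.1, 87 regions), between 250 and 300 bp beyond it, at the limit of the rule. The same last step was also the densest in each replicate's own list, at 289.3 per Mb in replicate 1 and 218.8 per Mb in replicate 2.

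Because the density was highest at the limit of the rule, the profile was extended to 1500 bp on both sides after these values were seen. The pooled density was 91.2 per Mb in the first 100 bp beyond the 3' end, 120.0 in the next 100 bp and 147.8 between 200 and 300 bp. It was 155.4 (132.4 to 181.3) between 300 and 400 bp, 143.8 between 400 and 500 bp, 114.97 between 500 and 600 bp and 80.3 between 900 and 1000 bp. The broad maximum therefore lay about 200 to 500 bp downstream, and the 3' end regions as defined hold only its near side. Inside the gene, the 100 bp steps from the end back to 1500 bp held between 60.5 and 91.8 per Mb. Replicate 1 was densest between 200 and 300 bp beyond the end, at 267.2 per Mb, and so was replicate 2, at 210.6 per Mb. The G+C content of the reachable sequence was 30.7% in the last 100 bp of the gene, 31.97% in the first 100 bp beyond it and between 34.8 and 35.5% farther out. Base composition thus had its minimum at the 3' end while the density had its maximum some 300 bp further on, and the part of base composition in the profile was not tested.

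**Figure D1:**
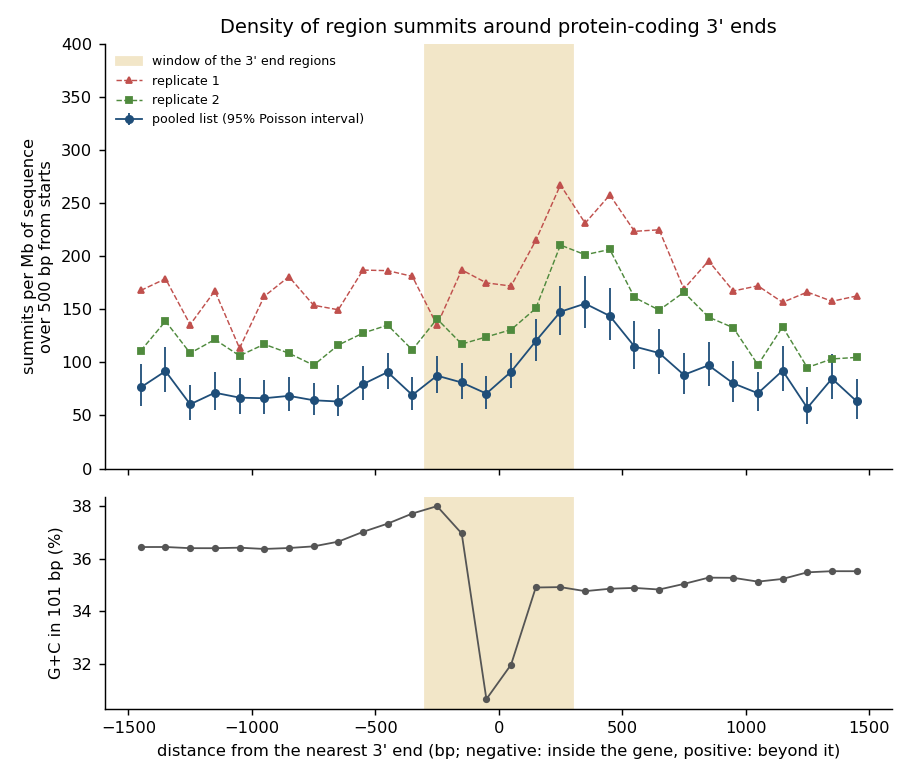
Top, region summits per Mb of sequence over 500 bp from starts (y axis) against distance from the nearest protein-coding 3' end in bp (x axis, 100 bp steps, negative inside the gene), for the pooled list with exact 95% Poisson intervals and for each replicate's own list; bottom, the G+C percentage of the same sequence. The pooled density was 70.6 per Mb in the last 100 bp of the gene and 155.4 between 300 and 400 bp beyond it, and the shaded band marks the 300 bp window of the 3' end regions.

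The same profile was taken over bases outside protein-coding genes alone, also after values were seen. Among those over 1000 bp from every start, the density was 95.2 per Mb (72.97 to 122.02) in the first 100 bp beyond a 3' end and 112.7 in the second. It was 133.8 between 200 and 300 bp, 147.8 (115.7 to 186.2) between 300 and 400 bp and 131.8 between 400 and 500 bp. It was 74.7 between 500 and 1000 bp, 47.8 (40.2 to 56.4) between 1000 and 2000 bp and 51.8 (48.0 to 55.9) at over 2000 bp. The 3 steps from 200 to 500 bp beyond 3' ends thus had the highest densities, with intervals above those of sequence over 1000 bp away. Among bases over 500 and up to 1000 bp from a start the values for the same 8 steps were 74.4, 83.6, 129.1, 110.6, 139.2, 89.0, 50.6 and 69.1 per Mb, so the same distances were high there too, on fewer regions.

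**Figure D2:**
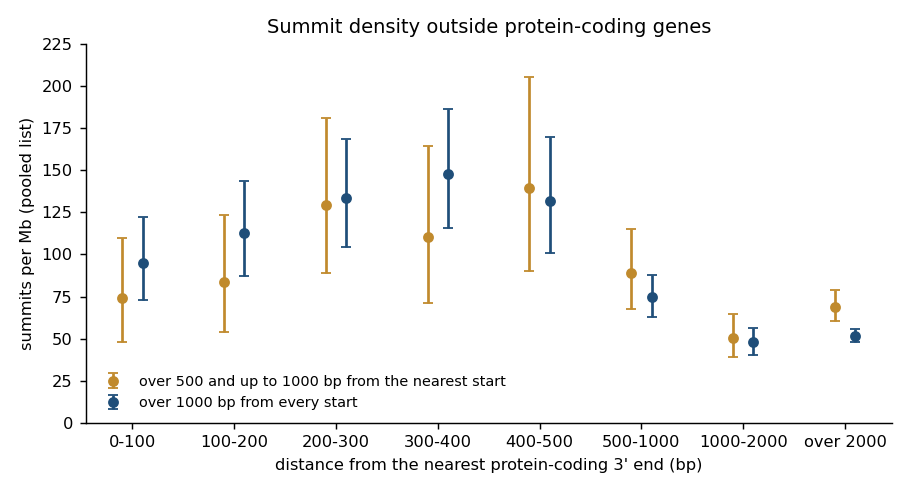
Region summits per Mb outside protein-coding genes (y axis, pooled list, exact 95% Poisson intervals) by distance from the nearest protein-coding 3' end (x axis, bp), for bases over 500 and up to 1000 bp from a start and for bases over 1000 bp from every start. In the class farther from starts the density was 147.8 per Mb at 300 to 400 bp and 47.8 per Mb at 1000 to 2000 bp.

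The 11 3' end regions of the IDR set lay on 4 chromosomes and beside genes of varied function. Values are the deposited signals in the pooled list and in the lists of replicates 1 and 2, with the rank in each list. The strongest was beside D2096.7, 119 bp beyond its 3' end, with its summit at chromosome IV position 8375603. It had a pooled signal of 222.9 at rank 58, a signal of 97.8 at rank 43 in replicate 1 and a signal of 121.4 at rank 78 in replicate 2. D2096.7 converges with aagr-1, an alpha-glucosidase-related gene, across a gap of 350 bp, and the 3' ends of both genes lie within 300 bp of the summit. Its nearest start of an avoided type was 2027 bp away.

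The regions beside pat-4 and cav-1 also ranked in the first 500 of every list. The pat-4 region (pat-4 encodes the integrin-linked kinase of muscle attachments) had its summit at chromosome III position 89356, 97 bp beyond the 3' end, in the 209 bp gap to the convergent gene mrpl-40, which encodes a mitochondrial ribosomal protein. Its signal was 129.6 at rank 218 in the pooled list, 67.5 at rank 122 in replicate 1 and 61.4 at rank 471 in replicate 2. The cav-1 region (cav-1 encodes a caveolin, a protein of membrane invaginations) had its summit at chromosome IV position 9773767, 208 bp beyond the end. Its signal was 118.3 at rank 260 in the pooled list, 49.5 at rank 274 in replicate 1 and 65.1 at rank 393 in replicate 2. Both replicates placed these regions among their strong ones.

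The regions beside F56A11.5 and zip-2 were as reproducible but lay in coding sequence. The F56A11.5 summit, at chromosome IV position 568527, was 159 bp inside the gene, in a coding exon, with a pooled signal of 146.1 at rank 162 and ranks of 244 in replicate 1 and 183 in replicate 2. The zip-2 summit (zip-2 encodes a bZIP transcription factor of the response to infection) was at chromosome III position 836050, 236 bp beyond the zip-2 end. It lay in a coding exon of the overlapping gene dos-3, which encodes a Notch co-ligand and whose 3' end is also within 300 bp. Its pooled signal was 134.0 at rank 200, with ranks of 189 and 265 in replicates 1 and 2.

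In 4 of the 11, replicate 2 ranked the region far above replicate 1. They were beside cpg-1, which encodes a chondroitin proteoglycan of the eggshell, scrm-4, which encodes a predicted phospholipid scramblase, T28B8.1 and K02B2.6. Their ranks in replicate 1 were 4435, 5674, 2755 and 3212 in that order of genes, and their ranks in replicate 2 were 154, 213, 207 and 259. Their pooled ranks ran from 304 to 392. The cpg-1 summit, at chromosome III position 4491102, was in a coding exon 290 bp inside the gene, and the scrm-4 summit, at chromosome I position 11680869, was in an untranslated exon of the overlapping gene kpc-1, which encodes a proprotein convertase. The T28B8.1 summit, at chromosome I position 8135306, and the K02B2.6 summit, at chromosome IV position 5961459, lay outside genes, 255 and 231 bp beyond the ends. By signal, these 4 had 24.6, 23.1, 27.5 and 26.6 in replicate 1, in the order of genes given above, and 94.5, 81.8, 83.3 and 75.2 in replicate 2. The other 7 ranked within the first 1000 in both replicates, the lowest being 780 in replicate 1 for the region beside knl-3, a kinetochore gene, and 471 in replicate 2 for pat-4. The knl-3 summit was at chromosome V position 1870848, in an untranslated exon of the overlapping gene T10B5.4 and 290 bp beyond knl-3. F54C8.7, with its summit at chromosome III position 9451325, ranked 661 in replicate 1 and 332 in replicate 2. The T28B8.1 region lay 534 bp from the start of the snoRNA gene T28B8.11, just past the 500 bp limit of the rule, while the next nearest start among the 11 was at 810 bp, for K02B2.6.

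**Figure D3:**
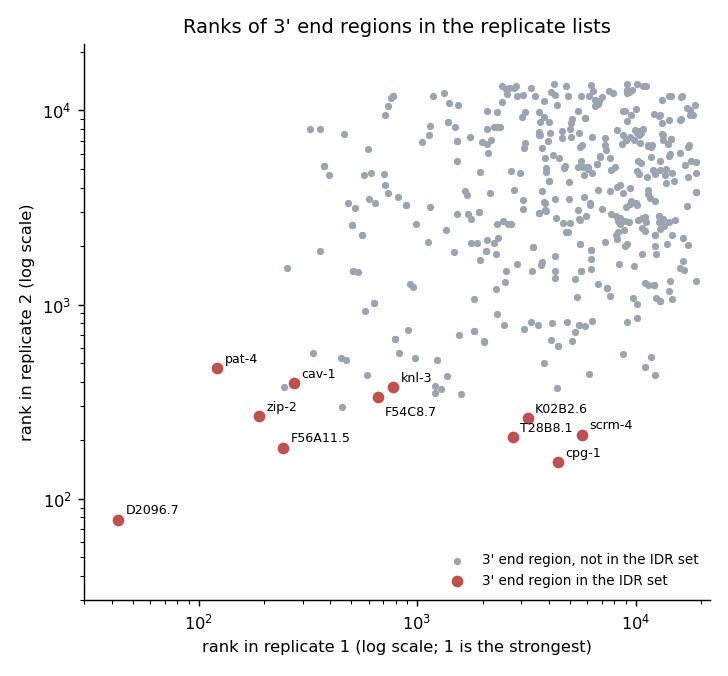
Rank in replicate 2 (y axis, log scale) against rank in replicate 1 (x axis, log scale) for the 440 3' end regions matched in both replicates, with rank 1 the strongest; red points are the 11 in the IDR set, named by the nearest 3' end. The D2096.7 region was at rank 43 and rank 78, and 4 of the 11 were at rank 2755 or below in replicate 1. Each rank is that of the strongest overlapping region of the replicate.

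The 9 strongest 3' end regions outside the IDR set ranked from 398 to 448 in the pooled list, with signals of 101.4 to 97.1. In rank order they lay beside C17G10.13, srg-21, K04B12.2, ntl-3, pck-2, F27D4.1, mbk-2, ins-36 and F59B2.8. The gene srg-21 encodes a chemoreceptor of the G protein-coupled kind, ntl-3 a subunit of the CCR4-NOT deadenylase complex, pck-2 a phosphoenolpyruvate carboxykinase, mbk-2 a kinase of the oocyte-to-embryo transition and ins-36 an insulin-like peptide. Of these 9, 4 had 2 protein-coding 3' ends within 300 bp: C17G10.13 with lys-8, ntl-3 with rsp-8, pck-2 with suro-1 and mbk-2 with F49E11.2. Among them srg-21 ranked 475 in replicate 1 and 520 in replicate 2, and K04B12.2 ranked 448 and 531. The region beside pck-2 ranked 4390 in replicate 1 and 371 in replicate 2, which again places it higher in replicate 2.

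By annotation at the summit, the largest gap to other sequence was outside genes. There the density was 106.1 per Mb near 3' ends (94.1 to 119.2, 282 regions) and 61.0 in other sequence away from starts (57.9 to 64.1, 1493 regions). In introns it was 102.3 per Mb (78.6 to 130.9, 63 regions) near 3' ends and 93.0 (89.4 to 96.8) elsewhere. In coding exons it was 89.5 (77.2 to 103.3, 189 regions) near 3' ends and 80.4 (76.1 to 84.8) elsewhere, so in neither class did the intervals separate. Taken beyond the 3' end alone, where the exon or intron belongs to another gene, the density was 164.2 per Mb in coding exons (129.4 to 205.5, 76 regions), 153.3 in introns (106.8 to 213.2, 35 regions) and 125.3 in untranslated exons (91.02 to 168.2, 44 regions). The first 2 intervals lie above those of coding exons and introns elsewhere. Inside the gene's own end the density was 68.6 in coding exons (56.5 to 82.5), 72.3 in introns (48.02 to 104.4) and 93.4 in untranslated exons (78.7 to 110.05). Over both sides of the end, untranslated exon sequence had the opposite order, with 99.4 per Mb (85.6 to 114.7, 187 regions) near 3' ends and 141.2 (120.8 to 164.0, 171 regions) elsewhere. Over all classes the density was 99.2 per Mb (92.1 to 106.7) near 3' ends and 79.4 (77.3 to 81.5) in the rest, a ratio of 1.25 (1.15 to 1.35). The ratio was 1.14 in the list of replicate 1 and 1.20 in that of replicate 2. Sequence within 500 bp of starts held 143.3 per Mb.

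**Figure D4:**
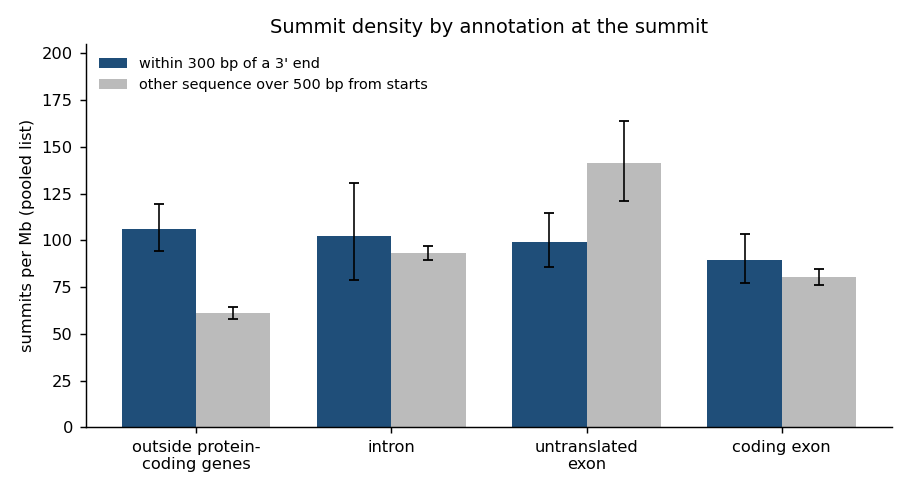
Region summits per Mb (y axis, pooled list) in sequence within 300 bp of a protein-coding 3' end and in other sequence over 500 bp from starts, by the annotation of the summit base (x axis); error bars are exact 95% Poisson intervals. Outside genes the bars stand at 106.1 and 61.0 per Mb, and in untranslated exons at 99.4 and 141.2.

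The density of the regions differed with the neighbour beyond the 3' end. Where the 3' end itself lay inside another protein-coding gene, the density was 137.7 per Mb (118.2 to 159.4, 178 regions). Where the next gene converged, with its own 3' end facing, it was 110.2 per Mb (97.3 to 124.4, 264 regions), and where the next gene ran in tandem, with its start facing, it was 78.0 (69.2 to 87.8, 279 regions). At tandem genes the regions lay mostly beyond the end, with 101.28 per Mb (86.5 to 117.9) beyond it and 58.4 (48.1 to 70.2) inside. At convergent genes the sides were alike within their intervals, with 114.0 per Mb (94.2 to 136.8) beyond the end and 107.4 (90.8 to 126.2) inside, where each side can be near the facing end as well. A single protein-coding 3' end lay within 300 bp of 543 of the 721 summits, 2 lay there in 177 and 3 in 1. The median gap to the convergent neighbour was 546 bp over the 264 convergent regions. It was 568 bp over convergent genes whose own 3' end lay over 500 bp from starts. The former is over regions and the latter over genes, and they were close.

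Some of these summits lay near starts of gene types that the rule does not avoid. The share for other regions or for reachable bases was not computed. The nearest such start within 500 bp was a piRNA gene in 17 of the 721 (2.36%), a pseudogene in 7, a long intergenic RNA in 5 and an antisense RNA in 1, and no ribosomal RNA start was there. The median distance to the nearest avoided start was 1471 bp and ranged from 501 to 15990 bp. The next summit of the pooled list was a median of 2452 bp away for 3' end regions and 2271 bp for other regions away from starts, so the 3' end regions stood about as far from other regions as the rest. The smallest distance was 199 bp in both classes, less than the width of a region, so some regions overlap. Of the 721, 54 were nearest to a gene that had another 3' end region. The intervals count each region as separate.

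The 3' end regions were richer in G and C than the sequence they were drawn from. The sequence within 50 bp of their summits averaged 37.7 ± 8.95% G+C (SD over 721 regions), against 39.5% for other regions away from starts, 40.9% for regions near starts and 34.5% for all bases the rule can reach. The 11 in the IDR set averaged 44.6 ± 9.11%. The density was 47.4 per Mb (34.3 to 63.9) in sequence under 25% G+C, 86.9 in sequence of 30 to 35% and 190.0 (160.4 to 223.4) in sequence of 45% and over. In the richest class the density was 267.3 per Mb (215.5 to 327.9) beyond the 3' end and 127.2 (95.6 to 166.003) inside the gene. In the poorest class it was 39.7 (24.2 to 61.3) beyond the end and 57.1 (36.2 to 85.7) inside. The value beyond the end was the higher one in the 5 classes from 25% upward, and the intervals of the sides were apart in the 3 classes from 35% upward. The part of base composition in these densities was not tested. Repeated sequence was scarce: in 9 of the 721 (1.25%) more than 50% of the 32-base words around the summit occurred elsewhere in the genome, against 1.23% of other regions away from starts and 4.66% of reachable bases.

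**Figure D5:**
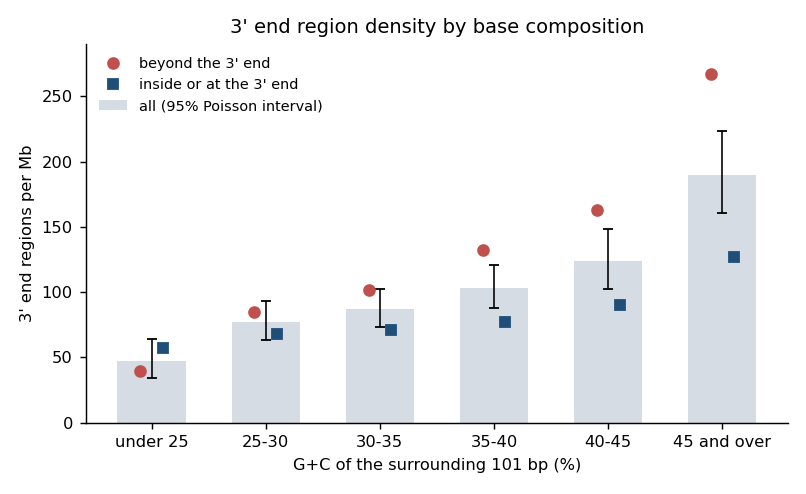
Density of 3' end regions per Mb of reachable sequence (y axis) by the G+C percentage within 50 bp (x axis); bars with exact 95% Poisson intervals are all bases, circles the bases beyond the 3' end and squares those inside or at it. Under 25% G+C the bar is at 47.4 per Mb, and at 45% and over it is at 190.0, with the circle at 267.3 and the square at 127.2.

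The polyadenylation hexamer was as frequent at these summits as at any reachable base. AATAAA lay within 50 bp of 198 summits (27.5%, 24.2 to 30.9), against 15.3% of other regions away from starts and 29.9% of reachable bases. TATAAA lay near 10.8% of the 3' end summits, against 7.56% of other regions and 12.7% of reachable bases. The CACGTG E box, as shown above for pat-4, K02B2.6 and tra-4, lay near 17 summits (2.36%, 1.38 to 3.75), against 2.02% of other regions and 1.54% of reachable bases. It was near 3 of the 11 regions in the IDR set, those beside pat-4, K02B2.6 and knl-3. The share over the whole IDR set was not computed, so this count has no background beside it. GCGCGC lay near 8 summits (1.11%, 0.480 to 2.17), against 1.12% of other regions and 0.433% of reachable bases. GAGAGA lay near 6.38% of 3' end summits and TTTTTTTT near 12.2%, against 4.99% and 12.05% of reachable bases. Among all 6-base words, ranked after counting, GGCAAA had the largest excess, with 11.0% of 3' end summits against 11.9% of other regions and 6.45% of reachable bases. GCGCCA, present in the tra-4 stretch above, lay near 4.30% of 3' end summits, 2.66% of other regions and 1.36% of reachable bases. TTGAAA had the largest deficit, with 22.2% of 3' end summits, 25.2% of other regions and 29.1% of reachable bases.

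Of the letters of tRNA promoters, the strict B box form lay near 1 summit, and the A box forms were near their share of reachable bases. The B box form GTTCGANNC lay within 50 bp of 1 3' end summit (0.139%, 0.00351 to 0.770), that beside pat-4. The shares were 0.954% (0.713 to 1.25) of other regions away from starts and 0.729% (0.597 to 0.881) of reachable bases, with intervals that overlap that of the 3' end regions. The A box form TGGCNNAGT lay near 6 (0.832%), against 1.54% and 0.826%. The looser A box form TGGNNNAGT lay near 23 (3.19%, 2.03 to 4.75), 2 of them in the IDR set, beside D2096.7 and zip-2, against 4.24% of other regions and 3.57% of reachable bases. With GG after it, that form lay near 2, beside D2096.7 and pqbp-1.1 (0.277%), against 0.440% and 0.213%. The looser B box form GTTCNANNC lay near 21 (2.91%, 1.81 to 4.42), against 3.27% and 3.67%. The summits were then searched for 20-base words shared with annotated small RNA genes, a search chosen after values were seen. None of the 721 shared one with a tRNA or snRNA gene, for an upper bound of 0.510%, and 1, beside fbxb-101 at rank 8526, shared one with a snoRNA gene. With miRNA genes 14 did (1.94%, 1.07 to 3.24), against 1.45% of other regions and 0.702% of reachable bases. They included tra-4 and tra-1, and none was in the IDR set.

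Genes with a 3' end region had a region at their start more often than other genes. Of the 19973 protein-coding genes, 17059 had 3' end sequence that the rule can reach, and 857 of these (5.02%, 4.70 to 5.36) had a 3' end region. Of the 857, 178 (20.8%, 18.1 to 23.6) also had a region of the pooled list within 500 bp of their own start. Of the other 16202 reachable genes, 1744 (10.8%, 10.3 to 11.3) had one. The share was higher on each chromosome, for example 20.8% against 8.35% on X and 17.5% against 6.89% on V, while the closest pairs were 20% against 15.9% on I and 20.96% against 15.6% on III. This comparison was chosen after values were seen.

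Of 15 gene lists, those for protein synthesis, chaperones and the cytoskeleton had shares above the 5.02% of all reachable genes, and several large families had shares below it, on small counts. Of the reachable genes, 6 of 46 ribosomal protein genes (13.0%, 4.94 to 26.3), 3 of 17 translation factor genes (17.6%), 5 of 43 chaperone genes (11.6%) and 4 of 13 actin and tubulin genes (30.8%, 9.09 to 61.4) had one. The interval for actin and tubulin genes lies above 5.02%, and those for the other 3 lists reach below it. The intervals do not allow for the choice among 15 lists, which were drawn up with earlier results of these data known. A gene was counted when its 3' end lay within 300 bp of a summit, even where the end of another gene was nearer. The strongest were hsp-1, which encodes a cytosolic Hsp70, at rank 796 (convergent with nra-1), eef-2, which encodes elongation factor 2, at rank 1131, rpl-3 at rank 1210, and act-3, an actin gene, at rank 1480. The region beside hsp-1 ranked 1559 in replicate 1 and 699 in replicate 2, and that beside eef-2 ranked 909 and 737. The regions of eef-2, rpl-3 and act-3 lay 182, 70 and 233 bp beyond the gene, and that of hsp-1 lay 245 bp beyond it. The other actin and tubulin genes with one were tbb-2 at rank 1771, act-4 at rank 2520 and tba-7 at rank 7495, and act-3, tbb-2 and act-4 were matched in both replicates. The tbb-2 summit was 196 bp from that gene's end and 65 bp from the end of C36E8.4. The act-4 summit was 145 bp from the ends of both act-4 and M03F4.6. The hsp-1 and rpl-3 summits were nearer to the ends of nra-1 and tir-1. The other translation factor genes were eef-1A.1 at rank 1526, with rank 359 in replicate 1 and 8044 in replicate 2, and eif-3.D at rank 5520. The eef-1A.1 summit was nearer to the end of F31E3.12. The 6 ribosomal protein genes had a median rank of 6572.5, weaker than the 4980 of all 3' end regions, and rpl-3 and rpl-9 were the ones matched in both replicates.

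Among the large families, 23 of 1276 genes on the chemoreceptor list had a 3' end region (1.80%, 1.15 to 2.69). That list was taken by symbol and holds src-1, which encodes a Src-type tyrosine kinase. Without it and other genes that share only the letters, such as the serpin genes, the count was 22 of 1264 (1.74%, 1.09 to 2.62). A 3' end region was also found at 7 of 304 F-box genes (2.30%, 0.931 to 4.69) and 5 of 243 nuclear receptor genes (2.06%, 0.671 to 4.74). All 3 intervals lie below 5.02%. C-type lectin genes had 6 of 222 (2.70%, 0.998 to 5.79), neuropeptide genes 3 of 126 (2.38%) and collagen genes 8 of 148 (5.41%). Of the 26 reachable major sperm protein genes 0 had one, so the upper bound of the share is 13.2%. Histone genes had 4 of 68 (5.88%), kinesin and dynein genes 1 of 14 and the maternal and germline list 1 of 20, which was spn-4, a maternal RNA-binding protein gene, at rank 5594. No listed gene's region was in the IDR set, and only those of srg-21 and ins-36 had a q-value under 0.05. The strongest chemoreceptor region was that of srg-21 at rank 401, and the strongest histone region was that of hil-3, a linker histone-like gene, at rank 1420. The hil-3 region ranked 8801 in replicate 1 and 557 in replicate 2. Over the regions of the 23 genes on the chemoreceptor list the median rank was 6532.5. The srlf-15 region, at pooled rank 1136, overlapped regions of rank 247 in replicate 1 and 378 in replicate 2, whose summits may differ. The srlf-15 summit was nearer to the end of cey-1. The strongest collagen region, beside col-156 and nearest to the end of mig-17, which encodes an ADAM protease, ranked 1479 and had no match in replicate 1. The strongest nuclear receptor region, that of nhr-46 at rank 2636, had no match in replicate 1 either, and the strongest F-box region, that of fbxa-125 at rank 3210, had none in replicate 2. The klp-19 region (klp-19 encodes a chromokinesin) ranked 5586 and was matched in replicate 2 alone, at rank 2212, and the strongest C-type lectin region, that of clec-78, ranked 1158 in the pooled list, 1121 in replicate 1 and 2109 in replicate 2.

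Of the 22 reachable genes of sex determination and dosage compensation, 5 had a 3' end region (22.7%, 7.82 to 45.4). The interval lies above 5.02% but does not allow for the choice among gene lists, drawn up with earlier results known. The count also includes tra-4, the gene whose tagged product was precipitated. No excess for this list is concluded from the interval. The 5 genes were tra-4 at rank 2564, dpy-27 at rank 3272, tra-1 at rank 4373, fox-1 at rank 4497 and tra-2 at rank 7572. None of their regions was in the IDR set or had a q-value under 0.05, and that of tra-4, the strongest, was 0.615. The tra-4 region was stronger than the quartile rank of 2627 of the 3' end regions, and the other 4 were weaker. The dpy-27 region (dpy-27 encodes a condensin subunit of the dosage compensation complex) was the best matched, ranking 1756 in replicate 1 and 2084 in replicate 2, with its summit 87 bp beyond the end. The tra-4 region ranked 10629 in replicate 1 and 5370 in replicate 2, with its summit at chromosome X position 2853395, 279 bp beyond the gene. The strain carries tagged tra-4 as a transgene, and whether the transgene adds copies of this sequence was not tested. The tra-1 region (tra-1 encodes the Gli-type factor at the end of the sex determination pathway) and the tra-2 region (tra-2 encodes its membrane receptor) both lay 293 bp beyond their genes, near the limit of the rule. The tra-2 region had no match in replicate 2. The fox-1 region (fox-1 encodes an RNA-binding X signal element) ranked 12962 in replicate 1 and 2439 in replicate 2.

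By chromosome, the 3' end regions were densest on I and III. On I the density was 153.2 per Mb (129.9 to 179.5, 153 regions) near 3' ends and 104.2 in other sequence away from starts, and on III it was 150.6 (126.1 to 178.4, 133 regions) and 108.0. On IV it was 100.99 (83.8 to 120.7, 121 regions) and 62.8, on II 96.3 (79.7 to 115.4, 117 regions) and 90.5, and on X 76.4 (61.0 to 94.5, 85 regions) and 60.6. Only on V was the value near 3' ends the lower one, at 60.2 (49.6 to 72.5, 112 regions) against 62.3. The intervals of the 2 classes were apart on I, III and IV and overlapped on II, V and X. The strongest region on X was beside F57G12.1, at rank 488, and ranked 255 in replicate 1 and 1539 in replicate 2.

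The distance limits of the rule cut through a continuous distribution. The last regions inside the 300 bp limit were beside srh-21 at 300 bp, with rank 8306, and beside nab-1 and dct-8 at 299 bp, with ranks 1085 and 2375. The first outside, at 301 bp, were beside oga-1, klp-19 (a region other than the one above) and W03A5.6, with ranks 1651, 6899 and 9299. At the start limit, the regions beside isp-1, lbp-1 and C31H5.7 lay 501, 502 and 505 bp from a start, with ranks 5601, 6043 and 2047. Those just outside it, beside scpl-4, T27C5.10 and Y62E10A.20, lay 500, 500 and 494 bp from one, with ranks 4958, 8908 and 2915.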

How the data were processed

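The authors deposited region lists in narrowPeak form for the ce10 and ce11 builds: a relaxed list for each replicate, a relaxed list of the pooled replicates and an IDR set. Each deposited region carries a signal value, a −log10 q-value and a summit. Per the file headers, a control alignment went into the relaxed lists, and it is not analysed here. Aligner, caller, IDR cutoff and read depth: not given in the sources used here. The ce10 lists were not used. Coordinates are 1-based on ce11, which is WBcel235, and gene ends, starts and classes came from Ensembl release 115.

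Summits were compared with all reachable bases, those the rule admits, and motifs with every 500th of them (14534 bases). Shares have Clopper-Pearson and densities exact Poisson 95% intervals. Scripts used Python 3.11.15, numpy 2.4.6, pandas 2.3.3 and scipy 1.17.1, and were checked on simulated data. Named genes are those nearest to every region in the IDR set, the 20 strongest regions, the strongest of each chromosome and list, and the 3 regions on each side of each limit. Other genes were named after their values were seen. The members and lists were chosen with earlier results of these data known. Alternatives were other distance limits, starts of every gene type, and 3' ends and starts of every transcript. The others were each replicate list, the stronger ranks of the pooled list, a q-value cutoff and a stricter replicate match.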

Additional observations from a re-analysis of the deposited data

How the results depend on the processing

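Of 37 alternative values for 5 results, 28 stayed within the interval of the value reported, or within 1.5 times for a count. With summits within 100 bp of the 3' end, 208 regions were left, 56.7% were matched in both replicates and the density ratio to other sequence was 0.997, so the excess was lost there. With 500 bp, 1224 regions had a ratio of 1.35. With the 3' ends and starts of every transcript, 806 regions had a ratio of 1.34. Using each replicate's list alone, the ratio was 1.14 to 1.20 and the number of regions 1053 to 1387, against 1.25 and 721 for the pooled list. A q-value under 0.05 in place of the IDR set gave 3.05%, and requiring replicate summits within 100 bp gave 38.003% matched in both. The median rank stayed between 4890 and 5045.5. No paired analysis was possible because there is 1 group. With no read counts, absence from a list is not absence of binding.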
